A study of Mus musculus with 6 samples.

Results

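Small nucleolar RNA (snoRNA) host genes are transcribed and spliced like messenger RNA genes, but the useful product of many of them lies in the introns. The spliced exons of the noncoding hosts hold no long reading frame, and their RNA is known to be removed by nonsense-mediated decay after translation begins on it. The introns are trimmed to C/D box snoRNAs, which guide methylation of ribosomal RNA, or to H/ACA box snoRNAs, which guide pseudouridylation. Several hosts belong to the TOP class of genes, whose transcripts start with a C followed by a run of pyrimidines and whose translation follows growth conditions. Growth arrest specific 5 (Gas5) was first found as a transcript that accumulates in fibroblasts that stop dividing.

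The 10 noncoding hosts described here are Gas5, Snhg1, Snhg3, Snhg5, Snhg6, Snhg8, Snhg12, Snhg15, Snhg17 and Snhg18. They were taken from a list of names, out of 25043 genes in the table, and each was represented by its noncoding RefSeq transcript with the highest mean count. All 10 were found, with 14 transcripts between them.

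The study made stranded total RNA libraries from mouse embryonic fibroblasts (MEFs), cells grown out of mouse embryos and kept below passage 8. There were 3 WT and 3 Anp32e null libraries, and the labels do not say whether those of 1 genotype came from separate embryos. Anp32e encodes a chaperone that removes the histone variant H2A.Z from chromatin. The value used here is the authors' mean normalized count of a transcript over all 6 libraries, so WT and Anp32e null cells stand together in every number. The table also holds the authors' own comparison of the 2 genotypes, which was not used here, and the question of how the hosts differ between WT and Anp32e null cells is therefore not answered. A pooled mean has no replicate error, the depth of single libraries is unknown, and no difference between genes was tested. Nor can the loss of Anp32e be checked in single libraries from such a mean.

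The markers of the labelled cell type were high in the pooled mean. All 9 fibroblast markers had a mean normalized count of at least 4160, with Vim, an intermediate filament protein, at 330695. Of the lists for other cells, the 5 epithelial markers had a median of 67.1, the 5 endothelial markers 4.47 and the 5 macrophage markers 3.09. Single markers of those lists were nevertheless high, with 7400 for Krt19, 1106 for Krt18 and 2958 for Kdr, and the macrophage marker Cd68 had 257. Krt19 was thus above the lowest fibroblast marker by count. Divided by exonic length in kb, as is done for the hosts below, Krt19 had 4696, above the median of 4408 for the 9 fibroblast markers. In bulk RNA, fewer cells of a type and less RNA per cell cannot be told apart.

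The snoRNAs are shown first, since they are what the introns of these genes are known for. The RefSeq annotation of GRCm38.p6 places 30 snoRNA genes within the 10 hosts. Gas5 and Snhg1 hold 8 each, Snhg12 holds 4, Snhg3, Snhg5 and Snhg17 hold 2 each, and Snhg6, Snhg8, Snhg15 and Snhg18 hold 1 each. Of the 30, 29 lie inside an intron of the host transcript, and no intron holds more than 1. The exception is Snora24, which lies inside the only exon of the transcript paired with Snhg8, so that reads from Snora24 also fall on the counted Snhg8 transcript.

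Each snoRNA was searched on its own strand for the letters of its class. A C box was taken as TGATGA starting and ending within the first 20 bases together with a D box, CTGA, within the last 12 bases, and an ACA box as ACA followed by exactly 3 bases. By these letters 14 snoRNAs held both C and D boxes, 6 held an ACA box and 10 held neither form. That says only that those exact letters are not at those places. In Snord87 of Snhg6, for example, TGATGA and CTGA are both present, but CTGA starts just outside the last 12 bases. The C/D box RNAs were 60 to 83 bases long and the ACA box RNAs 130 to 205 bases long. The following GENCODE M21 sequences (GRCm38, equal to mm10) show 1 C/D box RNA each from Gas5, Snhg12 and Snhg18, the near-identical pair of Snhg5, and ACA box RNAs of Snhg8, Snhg12 and Snhg15. Capitals mark the C box near the 5′ end and the D box near the 3′ end, or the ACA box.

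Snord47 (Gas5, chr1:161038082-161038158, plus strand): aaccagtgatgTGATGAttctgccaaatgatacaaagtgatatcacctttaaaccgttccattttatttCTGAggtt
Snord99 (Snhg12, chr4:132310691-132310764, plus strand): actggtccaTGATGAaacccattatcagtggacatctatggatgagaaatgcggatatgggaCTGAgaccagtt
Snord123 (Snhg18, chr15:32241853-32241923, minus strand): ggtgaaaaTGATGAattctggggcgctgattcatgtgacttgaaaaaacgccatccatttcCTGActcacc
Snord50a (Snhg5, chr9:88521529-88521600, minus strand): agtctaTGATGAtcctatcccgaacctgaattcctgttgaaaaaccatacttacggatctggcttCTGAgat
Snord50b (Snhg5, chr9:88521797-88521868, minus strand): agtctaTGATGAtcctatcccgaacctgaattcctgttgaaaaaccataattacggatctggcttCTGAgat
Snora24 (Snhg8, chr3:123507937-123508066, minus strand): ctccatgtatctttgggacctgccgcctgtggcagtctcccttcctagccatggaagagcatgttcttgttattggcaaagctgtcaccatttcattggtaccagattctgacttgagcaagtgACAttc
Snora61 (Snhg12, chr4:132310240-132310369, plus strand): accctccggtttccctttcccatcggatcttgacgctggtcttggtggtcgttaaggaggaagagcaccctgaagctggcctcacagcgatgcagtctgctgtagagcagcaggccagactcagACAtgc
Snora9 (Snhg15, chr11:6528033-6528165, minus strand): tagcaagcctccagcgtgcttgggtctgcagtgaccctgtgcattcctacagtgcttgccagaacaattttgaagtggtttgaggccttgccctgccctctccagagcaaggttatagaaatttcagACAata

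Snord50a and Snord50b shared 71 of 72 bases and differed by C50A, counted from 1 at the 5′ end with the base of Snord50a first. The pair of Snhg3, Snora73a and Snora73b, which belong to a snoRNA known for its part in ribosomal RNA processing, shared 198 of 205 bases. The pair of Snhg17, Gm24411 and Gm23925, shared 124 of 132 aligned bases. Reads that fit both copies of such a pair cannot be assigned to 1 of them.

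The distance between the 3′ end of the snoRNA and the 3′ splice site of its intron was similar in most hosts. It had a median of 77 bases over the 29 intronic snoRNAs and ran from 65 to 1595 bases. The 14 C/D box RNAs had a median of 75 bases with a range of 65 to 313, and the 5 intronic ACA box RNAs had a median of 82 bases with a range of 76 to 1595. Snora9 of Snhg15 was the farthest from its splice site, at 1595 bases. Both snoRNAs of Snhg17 were also far from theirs, at 365 and 382 bases. These distances use the RefSeq ends. Both ends equal those of GENCODE for 23 of the 30. The largest difference among the rest, 67 bases, is at the 5′ end of Snora61, which does not enter its distance. The 3′ ends, which do enter it, differ by fewer bases. The introns of Gas5 are those of its GENCODE transcript with 12 exons.

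**Figure D1:**
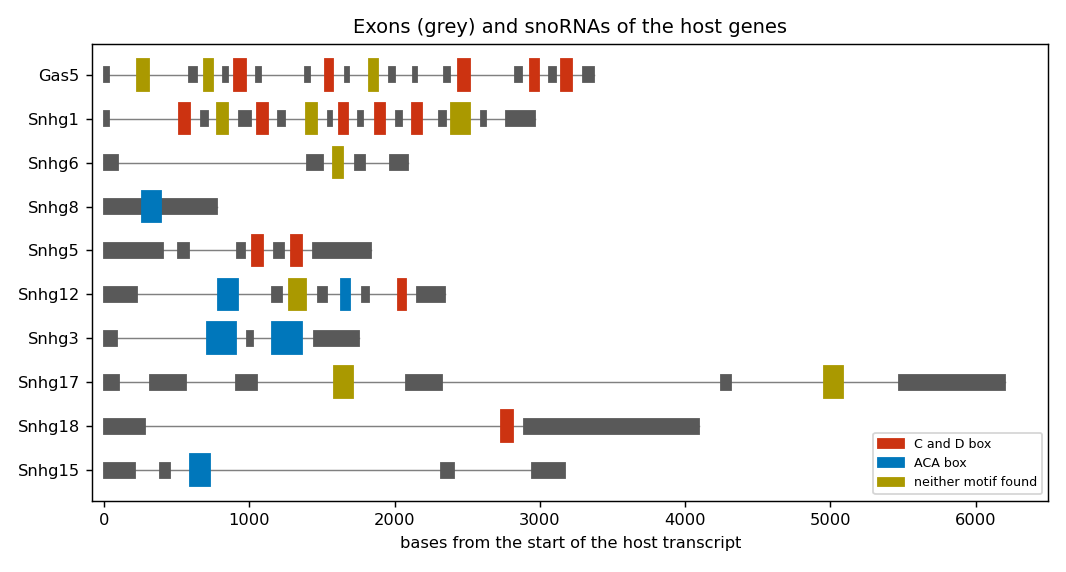
Exons (grey boxes) and snoRNAs (coloured by the letters found) of the 10 hosts, along the x axis in bases from the start of the host transcript, ordered on the y axis by mean normalized count. In Gas5, drawn by its GENCODE transcript with 12 exons, and in Snhg1, 8 introns each hold a snoRNA, while Snhg8 has 1 exon that contains Snora24.

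Counts rise with transcript length, so the counts given first are not an order of expression between genes. Gas5 had the highest count. Its 4 transcripts had mean normalized counts of 9420, 9604, 9766 and 9876, and the highest stands for the gene. Isoforms share exons, so these 4 values are not independent. Gas5 alone made up 36.7% of the summed count of the 10 hosts.

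Snhg1, which like Gas5 holds 8 snoRNAs, had a mean normalized count of 4154. Snhg6, the host of Snord87, had 2622. Snhg8, the host of Snora24, had 2495. Snhg5, the host of the Snord50 pair, had 2217.

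The other 5 hosts had counts between 697 and 1598. Snhg12 had 1598 and Snhg3 had 1265. Snhg17 had 1157 for the longer of its transcripts and 1026 for the other. Snhg18 had 816 and Snhg15 had 697. The median of the 10 was 1907.

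Levels were compared between genes per kb of exon, with the length of the GENCODE M21 transcript paired with the counted RefSeq transcript. Where several were paired, the mean of their lengths was used. For genes other than the hosts no other length was tried, so their levels per kb rest on this choice. A length was found for 9 of the 10 hosts, with a median of 606 bases, against 1339 bases over lncRNA genes with reads. Per exonic kb, Snhg1 (10 exons, 605 bases) had a mean normalized count of 6865 and Snhg6 (4 exons, 400 bases) had 6555. Their place depends on the length used. With the longest GENCODE transcript of each gene Snhg1 had 1523 and Snhg6 3213 per exonic kb, and Snhg1 was then below Snhg8 (3216), Snhg6, Snhg3 (2177) and Snhg5 (1815).

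With the paired lengths Snhg8 had 3216 per exonic kb, Snhg3 2894, Snhg12 2636 and Snhg5 2208. Snhg15 followed with 1177 per exonic kb, above Snhg17 with 745 and Snhg18 with 549, which have the longest exonic length of the 9. Because no spread over libraries can be given, whether neighbours in this order differ beyond replicate error is unknown. No paired length was found for Gas5. Its level per kb would be 3864 with its longest GENCODE transcript (2556 bases) and 28543 with its shortest (346 bases), so its place in this order is not settled.

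**Figure D2:**
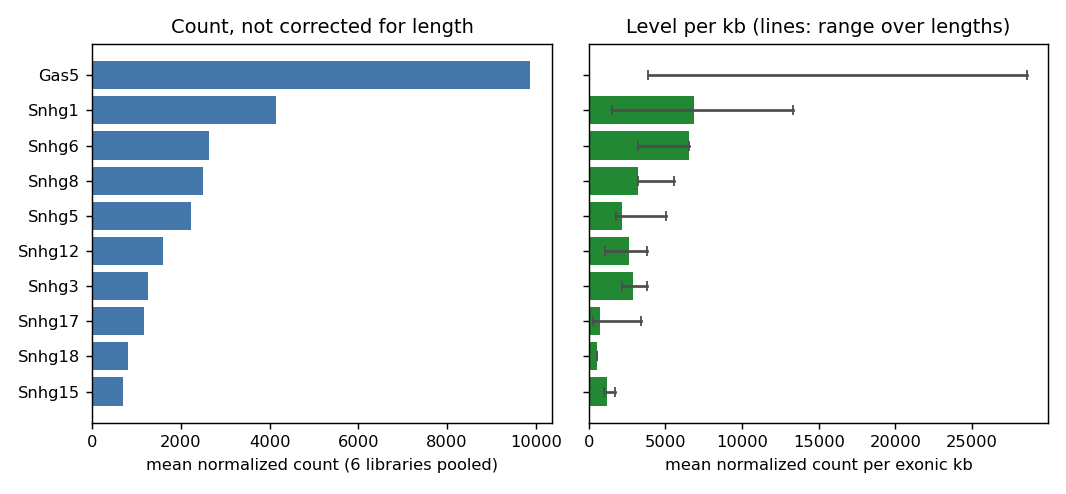
Authors' mean normalized count over 6 libraries (left, x axis) and the same per exonic kb (right, x axis) for each host (y axis), with no error bars because the means are pooled. Thin lines on the right run from the longest to the shortest GENCODE transcript of the gene, and the line of Snhg1, whose bar ends at 6865, reaches down to 1523 and so spans the levels of Snhg6, Snhg8, Snhg3, Snhg12 and Snhg5.

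With the paired lengths the hosts lay near the top of the long noncoding RNAs of these cells. Ranks per exonic kb were taken among the 1316 of 1551 lncRNA genes with reads that have a length, which leaves out Gas5. Snhg1 held rank 3, Snhg6 rank 5, Snhg8 rank 7, Snhg3 rank 8, Snhg12 rank 9 and Snhg5 rank 12. The ranks of Snhg15, Snhg17 and Snhg18 were 21, 42 and 59.

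The median per exonic kb of the 9 hosts was 2636. Over all genes with reads and a length it was 131, over the noncoding ones 18.2 and over the lncRNA genes 6.20. The percentiles of the 9 hosts among 2447 noncoding genes ran from 88.4 for Snhg18 to 98.6 for Snhg1. A gene counts as noncoding here when its transcript of highest mean is noncoding. The class therefore also takes in protein-coding genes, such as Nop56 and Nhp2 in the summed counts. As a share of the summed counts, which are not corrected for length, the 10 hosts made up 8.36% of the lncRNA genes, 0.840% of all noncoding genes and 0.0525% of all genes.

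**Figure D3:**
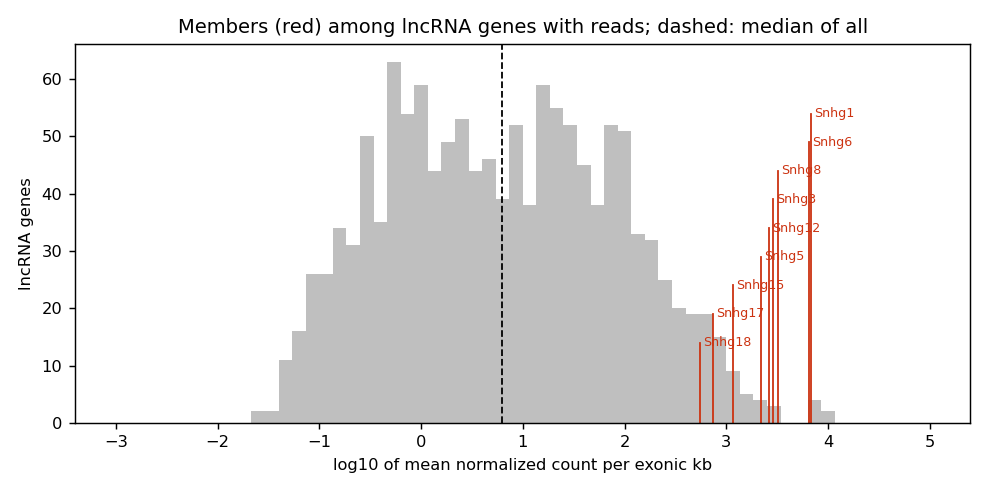
Histogram of 1316 lncRNA genes with reads and a length (y axis, genes) by log10 of their mean normalized count per exonic kb (x axis). The 9 hosts are red lines whose heights only separate the names, and the median of all, 6.20 per kb, is dashed. All 9 lie in the upper tail, from 549 per kb for Snhg18 to 6865 per kb for Snhg1.

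Of 8 further noncoding hosts looked up by name, 7 were found and Snhg11 was not. Their mean normalized counts ran from 126 for Snhg9 to 860 for Snhg14. Per exonic kb, 5 of them had a value, with a median of 408 and a highest of 687 for Snhg9, above Snhg18 but below the other 8 hosts with a length. Zfas1, a noncoding host outside that list that was picked after its value was seen, had 2313, above Snhg5. The 8 looked up all carry the name Snhg, so noncoding hosts under other names were not looked up as a set.

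The 18 protein-coding hosts looked up are mostly genes of the translation machinery with snoRNAs in their introns, and all but Cct6a had a length. The 17 had a median of 50125 per exonic kb, and 15 of them were above Snhg1, with 110727 for the elongation factor gene Eef2 and 101828 for the ribosomal protein gene Rpl7a. The other 2, named after their values were seen, were the nucleolin gene Ncl with 1517 and Eif4a2 with 2272, within the range of the noncoding hosts. The 8 TOP genes of the translation machinery that are not among these 18 had a median of 40453 per exonic kb. Whether they hold snoRNAs themselves was not looked up, so they do not stand for genes without snoRNAs.

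The proteins that bind snoRNAs had levels per exonic kb within the range of the hosts. All 4 C/D core proteins were found, and per exonic kb the methyltransferase gene Fbl had 2847, Snu13 1744 and Nop58 774. All 4 H/ACA core proteins were found, of which Nop10 had 3775 and Gar1 911 per exonic kb. No paired length was found for Nop56, Dkc1 and Nhp2, whose mean normalized counts were 15848, 5634 and 9752. Of the 8 assembly factors, 7 had a length (Znhit3 did not), and their median was 375 per exonic kb, with 5443 for Ruvbl2 and 4302 for Nolc1. The 13 factors of nonsense-mediated decay had a median of 780 per exonic kb, with 7854 for Magoh and 7319 for Eif4a3, both of the exon junction complex, and 3595 for Smg5.

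Of the 30 snoRNAs, 9 have a line of their own in the table, and 8 of these lie in a host with a level per kb. With the RefSeq length of the snoRNA, 7 of the 8 were below their host per kb and 1, Snora61, was above it. How well the libraries recovered RNAs this short was not measured, so these values do not show which RNA is more abundant in the cell. Snord22 of Snhg1, which is needed to mature the RNA of the small ribosomal subunit, had a mean normalized count of 650, or 5162 per kb, beside 6865 per exonic kb for Snhg1. Snora24 had a count of 285, or 2191 per kb, beside 3216 for Snhg8. Unlike the other 7 of the 8, Snora24 lies in an exon of its counted host, so reads of either can fall on both and their values are not separate.

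Snhg12 has lines for all 4 of its snoRNAs, and its own level was 2636 per exonic kb. Snora61 had a count of 231, or 3728 per kb with the 62 bases of RefSeq and 1778 per kb with the 130 bases of GENCODE, so its place above or below Snhg12 turned with the annotation. Snord99 had a count of 113 (2025 per kb), Snora44 111 (952 per kb) and Snora16a 83.0 (611 per kb). With GENCODE lengths all 8 snoRNAs were below their host.

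Snord87 had a count of 53.0, or 716 per kb, beside 6555 for Snhg6. Snord123 had 13.0, or 148 per kb, beside 549 for Snhg18. Snord47 had 120, or 1846 per kb, below the lowest level that any GENCODE length gives for Gas5, 3864. Reads that overlap the ends of so short a feature add to its count, and reads can come from the mature snoRNA or from unspliced host RNA, which cannot be told apart here. Counts of the other 21 snoRNAs were not analysed here.

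**Figure D4:**
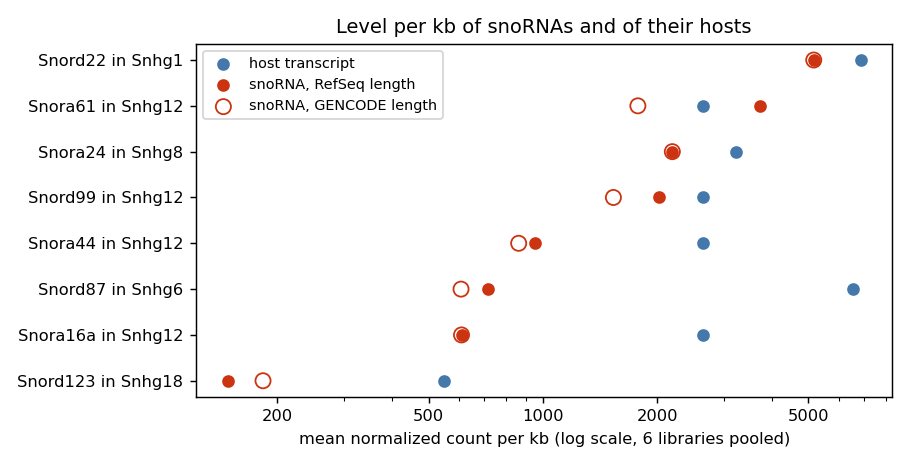
Authors' mean normalized count per kb over 6 libraries (x axis, log scale) of 8 snoRNAs, with RefSeq length (filled red) and GENCODE length (open red), and of their host transcripts (blue), 1 pair per line on the y axis. Only the filled point of Snora61, at 3728, lies right of its host, at 2636, and its open point lies left of it, at 1778.

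Start sites were examined next, since hosts of the TOP class are known for their 5′ ends. RefSeq promoter windows (GRCm38.p6, 250 bases before to 50 after the annotated start) were matched for 9 hosts, with 11 starts. A TATA-like motif was searched on the strand of the gene from -40 to -16. It was taken as the letters TATAAA, as the form with a T in the next to last place (TATATA), or as the form that opens with a run of T (TTTATA). One of these was found in 5 of the 11 windows, each of another host, while 3.18% of all 32851 windows held one. Those 5 were Gas5 (at its second start), Snhg1, Snhg5, Snhg8 and Snhg12. The other start of Gas5 and both starts of Snhg17 held none. In Snhg3 the letters TATAAA lay after the annotated start, at +23.

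A run of at least 5 pyrimidines that began with C within 10 bases of the start was found in 6 of the 11 windows, and in 30.7% of all windows. A run of at least 7 was found in 2 of the 11, those of Snhg12 and Snhg18, and in 12.2% of all windows. The windows from 40 bases before to 20 bases from the start are shown for the 5 hosts with a TATA-like motif, and for Snhg18 with the longest pyrimidine run. Capitals mark the TATA-like motif and a pyrimidine run of at least 5 bases.

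Gas5 (chr1:161035126-161035185, plus strand): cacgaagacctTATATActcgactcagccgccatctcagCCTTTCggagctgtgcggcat
Snhg1 (chr19:8723447-8723506, plus strand): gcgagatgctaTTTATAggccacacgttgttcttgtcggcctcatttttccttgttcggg
Snhg12 (chr4:132308638-132308697, plus strand): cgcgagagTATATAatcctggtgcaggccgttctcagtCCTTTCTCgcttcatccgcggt
Snhg5 (chr9:88522878-88522937, minus strand): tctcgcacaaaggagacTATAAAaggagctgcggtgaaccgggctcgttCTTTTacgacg
Snhg8 (chr3:123508317-123508376, minus strand): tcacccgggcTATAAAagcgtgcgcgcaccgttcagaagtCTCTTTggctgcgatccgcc
Snhg18 (chr15:32244643-32244702, minus strand): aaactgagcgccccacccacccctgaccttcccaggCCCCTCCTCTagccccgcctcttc

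The motif began at -29 in Gas5 and Snhg1, -30 in Snhg8, -32 in Snhg12 and -23 in Snhg5. Per exonic kb, hosts with and without the motif overlapped, with 2208 to 6865 for the 4 with the motif that have a length and 549 to 2894 for the 4 without it. By count, which is not corrected for length, they did not overlap, with 1598 to 9876 for the 5 with the motif and 697 to 1265 for the 4 without it. Whether the motif goes with the level was not tested. The 11 windows had a median GC content of 62.0% and a median of 25 CpG dinucleotides, beside 52.7% and 7 over all windows.

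Some hosts share ground with other genes, which limits what their counts stand for. Snhg3 overlaps Rcc1 on the same strand by 1673 bases, and Rcc1 had a mean normalized count of 4514. On the opposite strand, Snhg3 overlaps Gm17300, whose level was not analysed here, by 1450 bases, Gas5 overlaps Zbtb37 by 249 bases and Snhg6 overlaps Mcmdc2 by 61 bases, with mean normalized counts of 282 and 41.3 for the overlapping genes. How reads shared by several transcripts were counted is not known here. The 4 transcripts of Gas5 had near-equal counts, from 9420 to 9876, so reads they share may have been counted on each. The kit kept the strand, while the methods name default settings, under which featureCounts does not use strand. Whether every setting was the default is not known from these values. If strand was not used, reads of 2 genes on opposite strands cannot be told apart.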

How the data were processed

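Total RNA of 3 WT and 3 Anp32e null MEF libraries was sequenced by the authors with a stranded kit. According to the methods and the submitters' processing notes, reads were aligned to mm10 with STAR, counted on RefSeq transcripts with featureCounts of Subread, and normalized with DESeq2. The methods name default settings for the last 2 steps, and the version of Subread is not given in the sources used here. The signal column used here is the authors' deposited mean over the 6 libraries of counts divided by size factors, with both genotypes pooled. The other 5 columns hold the authors' own comparison (fold change, its standard error, Wald statistic, p-value and adjusted p-value) and were not used, so no test was run and depth per library is unknown.

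Of 42361 transcripts, 42203 were named with RefSeq (GRCm38.p6) and 35338 were paired with a GENCODE M21 transcript for exonic length. The transcript of highest mean stood for its gene, and noncoding genes are those whose representative is a noncoding transcript. Percentiles count genes with reads, and per kb only those with a length. All hosts were named, and other genes came from fixed lists, at most the 4 highest per kb in each and those not found, together with genes whose overlap or missing length bears on a value. Ncl, Eif4a2 and Zfas1 were named after their values were seen. Members and lists were chosen with earlier results of these data known. Python 3.11.15, pandas 2.3.3, numpy 2.4.6, Biopython 1.88 and matplotlib 3.10.9 were used. Percentile and intron functions were tested on simulated data.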

Additional observations from a re-analysis of the deposited data

How the results depend on the processing

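Since the means carry no spread, a value was taken as changed when it differed at 3 significant digits. The median count of the hosts, 1907, stayed at that value with the lowest transcript or the mean of the transcripts of each gene. The median per exonic kb, 2636, stayed with the longest or shortest RefSeq transcript and with a pseudocount of 1. Neither median could have moved under these settings, so they are no check of stability. Only Gas5 and Snhg17 have several transcripts. With each of them Gas5 stays above the median count and Snhg17 below both medians. The pseudocount was taken off again after the median. Under alternatives chosen after seeing the data, the median per exonic kb was 2765 with Gas5 added at its longest or its shortest GENCODE transcript. Under another such alternative it was 1523, with each host at its longest GENCODE transcript, where Snhg1 fell from 6865 to 1523. The median percentile among noncoding genes was 96.5, and it was 97.8 with no filter on low values, 92.4 among genes with a mean of at least 10, 91.5 among all genes with reads, and 93.6 by count with no division by length, which also brings in Gas5 and the background genes without a length. Alternatives chosen after seeing the data gave 92.7 by count without Gas5 and 99.4 among lncRNA genes only. Of 110 recomputed values of single hosts, 57 changed. The others could not have changed, because the alternative used the same transcript, length or value as the main result. This share is therefore no measure of stability. No paired analysis was possible because the table holds 1 pooled value per transcript, and leaving out a replicate could not be run for the same reason. The depth of single libraries limits each value by an unknown amount.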
